A study of Mus musculus with 30 samples.

Results

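The 10 genes described here are target genes of the tumour suppressor p53 and members of the Bcl2 family: Cdkn1a, Mdm2, Ccng1, Trp53inp1, Bbc3, Bax, Bcl2, Bcl2l1, Bcl2l11 and Mcl1. They were taken by gene symbol from the annotation of the array, and 31 probe sets carried the symbol of 1 of them alone. Of the 10 genes 9 were measured, of 15136 genes tested in all, and Bax was not analysed here. The cells were limb mesenchyme, the loose embryonic tissue that forms cartilage and tendon, dissected from CD-1 mouse embryos at E10.5 and plated as dense drops. The early population came from the distal hindlimb, the intermediate population from the distal forelimb and the late population from the proximal forelimb. All cultures had medium with serum, and the treated ones also received BMP4, a secreted signal protein of the TGF-beta superfamily, at 20 ng/ml from the start. Each population was sampled as control at days 0, 1 and 2 and under BMP4 at days 1 and 2, which gives 15 groups of 2 arrays that the labels call biological replicates. Each RNA came from cultures of about 280 pooled embryos, so differences between embryos cannot be seen, and all groups carry the unmodified genome of an outbred strain. Day 0 means shortly after plating, when cells had been released by protease, passed through a strainer and left to attach.

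The p53 protein is a transcription factor that is normally kept scarce by Mdm2, a ubiquitin ligase that is itself a p53 target, and that is stabilised by DNA damage and other stress. Its targets include genes that stop the cell cycle, such as the cyclin-dependent kinase inhibitor Cdkn1a, and genes that promote cell death, such as Bbc3, also called Puma. Proteins of the Bcl2 family set whether the mitochondrial outer membrane is opened: Bcl2, Bcl2l1 (Bcl-xL) and Mcl1 protect it, the BH3-only proteins Bbc3 and Bcl2l11 (Bim) block the protectors, and Bax forms the pore. In the limb bud, BMP signals are known both for their part in cartilage formation and for triggering cell death between the digits and at the edges of the bud.

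The promoters of the p53 targets are shown because the known route from p53 to these genes is a pair of p53 decamers, the 10-base units of the p53 response element. The sequences below are RefSeq windows of 300 bases in GRCm38.p6, from 250 bases before to 50 bases after an annotated start, written from 5′ to 3′ along the gene's strand, and capitals mark exact matches to the p53 decamer consensus, which reads the same on both strands. Bcl2 is shown beside 2 p53 targets because the results below turn on it.
Cdkn1a, chr17:29090729-29091028, plus strand: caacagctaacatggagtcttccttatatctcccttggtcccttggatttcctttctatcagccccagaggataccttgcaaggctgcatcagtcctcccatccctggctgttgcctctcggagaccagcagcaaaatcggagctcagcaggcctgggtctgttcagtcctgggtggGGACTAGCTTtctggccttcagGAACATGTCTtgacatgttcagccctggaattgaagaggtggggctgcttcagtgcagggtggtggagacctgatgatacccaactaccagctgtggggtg
Ccng1, chr11:40755237-40755536, minus strand: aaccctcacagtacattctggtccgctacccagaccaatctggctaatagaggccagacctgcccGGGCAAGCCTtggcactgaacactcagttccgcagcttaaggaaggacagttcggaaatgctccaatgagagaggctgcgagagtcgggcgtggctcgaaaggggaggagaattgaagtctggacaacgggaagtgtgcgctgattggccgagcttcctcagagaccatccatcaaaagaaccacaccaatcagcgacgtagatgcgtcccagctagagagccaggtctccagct
Bcl2, chr1:106714241-106714540, minus strand: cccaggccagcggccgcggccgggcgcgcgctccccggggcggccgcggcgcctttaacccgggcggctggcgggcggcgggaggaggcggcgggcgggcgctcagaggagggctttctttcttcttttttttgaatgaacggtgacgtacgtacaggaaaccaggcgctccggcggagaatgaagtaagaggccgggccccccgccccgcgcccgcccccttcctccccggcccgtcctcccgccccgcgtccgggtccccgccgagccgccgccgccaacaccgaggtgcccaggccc
The table of promoters held 15 windows for 9 of the 10 genes, and Trp53inp1 had none. A decamer was found in 4 of the 15 windows: 1 of the Cdkn1a windows, and those of Mdm2, Ccng1 and Bax. The Cdkn1a window above holds 2 exact decamers separated by 12 bases, the first 73 bases before the start. The 10 bases directly after the second, tgacatgttc, miss the consensus at 1 base and were therefore neither marked nor counted. Which of these units form a pair cannot be read from exact matches alone. Of all 32851 promoter windows of this length 8.36% hold at least 1 decamer, and 24 windows (0.0731%) hold 2 that lie 0 to 13 bases apart. The matches are a description of these letters, and the data do not measure binding of p53.

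Levels are given as log2(signal + 16), and folds are given on this scale, which understates the change of dim genes. Array medians were signals of 33.9 to 46.4, and all 9 genes lay above their array's 40th percentile on 30 of 30 arrays. All 6 limb mesenchyme markers were above the same limit, and from day 0 to day 1 of control culture 2 of them rose and 3 fell, with a median of -0.59. The signal summed over 6 red blood cell markers was 7355 to 17773 at day 0 and 57 to 290 in day 1 control cultures, that of 7 endothelial markers 406 to 749 and 120 to 257, that of 7 skeletal muscle markers 208 to 509 and 1538 to 8505, and that of 6 cartilage markers 589 to 1203 and 3028 to 5064. From day 0 to day 1, 5 of 6 red blood cell and 6 of 7 endothelial markers fell, 6 of 7 muscle markers rose, and of 6 cartilage markers 5 rose and 1 fell. Every comparison with day 0 therefore also compares cultures of different cell content, and the part of these cells in the results on day 0 was not tested. In such bulk RNA, fewer cells of a type and less RNA per cell cannot be told apart. The 3 replicate 2 arrays of day 0 go against their labels. Pitx1, a hindlimb gene, stood at 5.90 on the array labelled early and at 9.43 on the one labelled intermediate, and Tbx5, a forelimb gene, at 8.50 and 4.68. Meis2 stood at 7.53 on replicate 2 labelled late and at 9.60 on replicate 1. Values from day 0 are therefore given mainly as means over the 3 populations, which use all 6 day 0 arrays whatever their origin, and again without these 3 arrays.

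Over the first day of control culture the 3 p53 targets Cdkn1a, Ccng1 and Trp53inp1 rose together with the survival gene Bcl2, while the death-promoting genes Bbc3 and Bcl2l11 and the survival gene Mcl1 fell. Of the 5 p53 targets, counting Bbc3, 3 rose and 2 fell. In the mean of the 3 populations 8 of the 9 genes passed the threshold of an adjusted p of 0.05, 4 higher and 4 lower. Over all genes 39.5% passed, 22.5% higher and 17% lower. Where day 0 arrays are said below not to overlap with cultured ones, the share of all genes that did so is not given. Such statements only describe the values of that gene.

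Cdkn1a stood between 7.56 and 8.41 on the 6 day 0 arrays (median 7.94), between 8.73 and 10.04 on the 6 control arrays of day 1 (median 9.45) and between 9.19 and 10.96 on those of day 2 (median 10.33). All day 1 arrays were above all day 0 arrays, while days 1 and 2 overlapped. The difference of day 1 from day 0 was 1.43 ± 0.32 (SE, 6 arrays a day), or 2.70-fold (adjusted p = 0.00106). Ccng1, which encodes cyclin G1, stood between 7.51 and 8.13 at day 0 (median 7.78), 9.34 and 10.91 at day 1 (median 9.85) and 9.93 and 11.52 at day 2 (median 11.00). It showed the same order of days as Cdkn1a, with a wider gap between days 0 and 1. Its rise by day 1 was 2.20 ± 0.32, or 4.58-fold (adjusted p = 1.33e-05). Trp53inp1, a stress-induced protein that acts with p53 in cell death and autophagy, stood between 6.82 and 7.70 at day 0 (median 7.30), 9.35 and 10.00 at day 1 (median 9.63) and 9.67 and 10.74 at day 2 (median 10.02). With the brightest probe sets it had the largest difference of the 9 genes, 2.40 ± 0.16 or 5.28-fold (adjusted p = 4.36e-10), and its replicates were closer than those of Ccng1. Across the alternatives its difference was 1.62 at the lowest and that of Ccng1 1.98, so it was not the largest in each. Its other probe set passed in the mean and in the intermediate population, but not in the early or late population.

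Mdm2 went the other way by a small amount. It stood between 10.07 and 10.23 at day 0 (median 10.20), 9.35 and 10.24 at day 1 (median 9.71) and 9.79 and 10.61 at day 2 (median 9.93), so the days overlapped. Its difference at day 1 was -0.43 ± 0.16 (adjusted p = 0.0353), and without the 3 doubted day 0 arrays it was -0.46 (adjusted p = 0.107), so the call does not hold without them. Bbc3 stood between 8.36 and 8.90 at day 0 (median 8.45), 6.49 and 7.78 at day 1 (median 7.13) and 7.01 and 7.97 at day 2 (median 7.46). Every cultured control array was below every day 0 array, and the difference at day 1 was -1.37 ± 0.22, or 2.58-fold lower (adjusted p = 4.69e-05). Bcl2l11, the other BH3-only gene, stood between 9.17 and 9.86 at day 0 (median 9.59), 8.64 and 8.96 at day 1 (median 8.76) and 8.61 and 9.03 at day 2 (median 8.89). It too lay below day 0 on every control array of days 1 and 2, by -0.77 ± 0.11 at day 1 (adjusted p = 7.25e-06).

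The 3 survival genes moved in different ways. Bcl2 stood between 7.20 and 7.51 at day 0 (median 7.32), 8.73 and 9.54 at day 1 (median 8.97) and 8.84 and 10.18 at day 2 (median 9.14). The lowest cultured control array was above the highest day 0 array, and the rise by day 1 was 1.68 ± 0.21, or 3.20-fold (adjusted p = 2.04e-06). Mcl1, a short-lived protector, stood between 11.25 and 11.56 at day 0 (median 11.44), 10.97 and 11.16 at day 1 (median 11.06) and 10.68 and 11.11 at day 2 (median 10.89). Its difference at day 1 was small, -0.36 ± 0.07 (adjusted p = 0.000426), and left no overlap with day 0. It was -0.23 after quantile normalization and -0.64 with the mean of its probe sets. Bcl2l1 stood between 9.16 and 9.68 at day 0 (median 9.46), 9.61 and 9.99 at day 1 (median 9.73) and 8.67 and 9.90 at day 2 (median 9.61). Its difference of 0.32 ± 0.13 at day 1 missed the threshold (adjusted p = 0.0673), with a 95% interval of 0.04 to 0.60. It passed with the mean of its probe sets (0.27, adjusted p = 0.0344), with median centring and with only the groups in the contrast. Bbc3 has 1 probe set, and the 18 other fitted probe sets of the called genes all had the sign of the brightest one here.

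**Figure D1:**
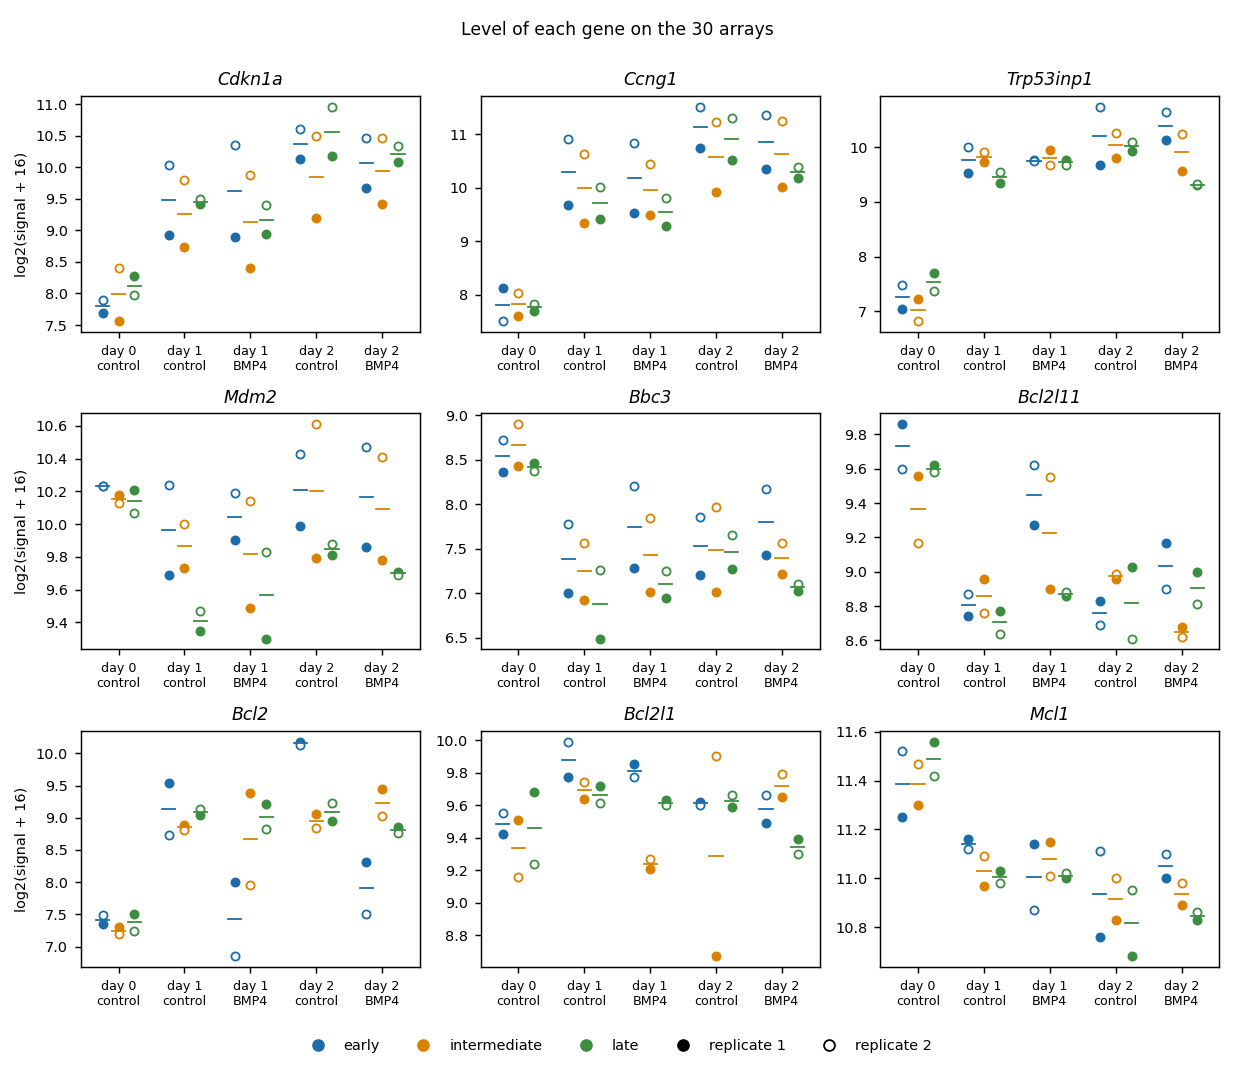
Level of each of the 9 genes, log2(signal + 16), on all 30 arrays, by day and treatment on the horizontal axis, population in colour and replicate by filled or open points, with a bar at each group's mean. The vertical axes differ between panels and do not start at 0. Cdkn1a, Ccng1, Trp53inp1 and Bcl2 lie higher in control culture than at day 0 and Bbc3, Bcl2l11 and Mcl1 lower, and Bcl2 of the early population lies lower with BMP4 on both days.

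Within single populations, where each day has 2 arrays, 6 of the 9 genes passed in the early population (15.5% of all genes), 4 in the intermediate (21%) and 6 in the late (18.9%). Ccng1, Trp53inp1 and Bcl2 rose and Bbc3 fell in each. Trp53inp1 was 2.49 ± 0.28, 2.80 ± 0.28 and 1.91 ± 0.28 higher in the early, intermediate and late populations, and Bcl2 1.71 ± 0.37, 1.60 ± 0.37 and 1.72 ± 0.37. Bcl2l11 was lower in the early population at -0.93 ± 0.19 and in the late at -0.89 ± 0.19, and in the intermediate its difference of -0.50 ± 0.19 had an adjusted p of 0.0627. Cdkn1a was 1.69, 1.28 and 1.33 higher with an SE of 0.55 in each, and passed in the early population only (adjusted p = 0.0417). Whether these rises differed between populations was not tested. A fit without the 3 doubted day 0 arrays leaves 1 day 0 array a population, whose spread is assumed to be that of the other groups. Only the sizes of differences are therefore given here. In the mean over populations the 7 called genes other than Mdm2 then differed from day 0 by 1.56 for Cdkn1a, 2.18 for Ccng1, 2.35 for Trp53inp1 and 1.64 for Bcl2. Bbc3 was at -1.25, Bcl2l11 at -0.89 and Mcl1 at -0.31.

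Between days 1 and 2 of control culture none of the 9 genes passed the threshold of limma's test in the mean of the 3 populations, where 8.55% of all genes did (5.61% higher and 2.94% lower), and 5 had an unadjusted p under 0.05. The differences were 0.86 ± 0.32 for Cdkn1a (adjusted p = 0.104), 0.88 ± 0.32 for Ccng1 (adjusted p = 0.103), 0.41 ± 0.16 for Trp53inp1, 0.34 ± 0.16 for Mdm2 and -0.17 ± 0.07 for Mcl1. For Cdkn1a and Ccng1 replicate 2 lay above replicate 1 in every cultured group, and with the replicate number as a block both passed (adjusted p = 0.00417 and 0.00498), so that these calls depend on that choice. In single populations 0 of the 9 passed, against 1.21%, 0.832% and 0.846% of all genes in the early, intermediate and late population. Bcl2 was 1.02 ± 0.37 higher on day 2 in the early population (adjusted p = 0.265), 0.10 ± 0.37 in the intermediate and -0.01 ± 0.37 in the late.

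From day 0 to day 2 the net change was 2.29 ± 0.32 for Cdkn1a (4.89-fold, adjusted p = 3.85e-06), 3.07 ± 0.32 for Ccng1 (8.41-fold, adjusted p = 9.33e-08), 2.81 ± 0.16 for Trp53inp1 (7.00-fold, adjusted p = 1.77e-11) and 2.05 ± 0.21 for Bcl2 (4.14-fold, adjusted p = 7.61e-08). Bbc3 was -1.05 ± 0.22 from its day 0 level, Bcl2l11 -0.71 ± 0.11 and Mcl1 -0.53 ± 0.07, each past the threshold. Mdm2, at -0.09 ± 0.16, and Bcl2l1, at 0.08 ± 0.13, were not, with 95% intervals of -0.42 to 0.24 and -0.20 to 0.36. So 7 of 9 genes passed, where 48.5% of all genes did, 26.9% higher and 21.5% lower. The day 2 and day 1 differences share the day 0 arrays.

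**Figure D2:**
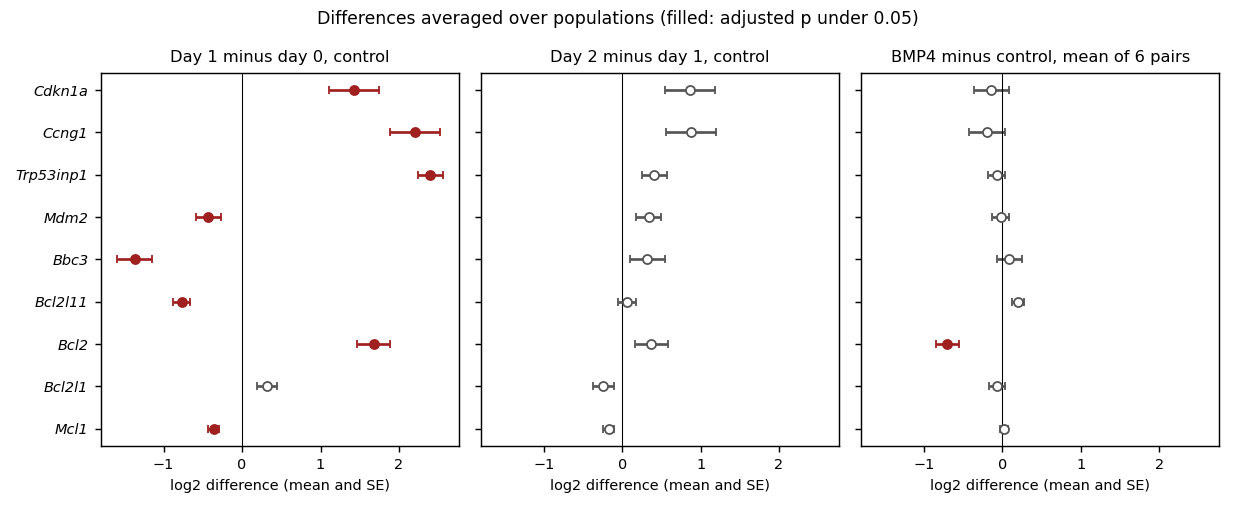
Log2 difference of each gene with its SE, averaged over populations: day 1 minus day 0 and day 2 minus day 1 in control medium, and BMP4 minus control over 6 population and day pairs. Filled points passed an adjusted p of 0.05. In the first panel 8 of 9 points are filled, in the second 0, and in the third only Bcl2, at -0.70.

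With BMP4, Bcl2 was lower than in control in distal hindlimb cultures on both days, and no other of the 9 genes passed the threshold for BMP4 in any population or day. On the early control arrays of day 1 Bcl2 stood at 9.54 and 8.73, and with BMP4 at 8.0 and 6.85. On day 2 it stood at 10.18 and 10.13 in control and at 8.32 and 7.50 with BMP4. BMP4 arrays lay below control arrays on both days, with the wider gap on day 2. The difference was -1.71 ± 0.37 on day 1, or 3.27-fold lower (adjusted p = 0.0128), and -2.24 ± 0.37 on day 2, or 4.74-fold lower (adjusted p = 0.00141). On day 1 the share of all genes that passed was 2.45%, with 0.918% lower, and on day 2 it was 5.68%, with 3.28% lower. BMP4 and control arrays of the early population did not overlap for 43.3% of all genes on day 1 and 52.1% on day 2. The day 0 arrays labelled early stood at 7.35 and 7.49, within the range of the early BMP4 arrays of day 1. The array at 7.49 is replicate 2, whose markers go against its label. All 6 day 0 arrays, between 7.20 and 7.51, lay within that range.

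In forelimb cultures the difference of Bcl2 did not pass. On day 1 the intermediate control arrays stood at 8.89 and 8.81 and the BMP4 arrays at 9.39 and 7.96, which lie on either side of the controls. On day 2 they stood at 9.06 and 8.84 in control and 9.44 and 9.02 with BMP4. In the late population the control arrays stood at 9.05 and 9.14 on day 1 and 8.95 and 9.23 on day 2, and the BMP4 arrays at 9.21 and 8.82 and at 8.86 and 8.76. The differences were -0.17, 0.28, -0.08 and -0.28 for intermediate days 1 and 2 and late days 1 and 2, each with an SE of 0.37 and 95% intervals that reach from -1.04 at the lowest to 1.05 at the highest. The share of all genes that passed was 0.238%, 0.00661%, 0.0793% and 0.0132% in these 4 comparisons. Over the 6 pairs the mean was -0.70 ± 0.15 (adjusted p = 0.00391), where 11.7% of all genes passed, 6.1% higher and 5.55% lower.

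The response itself differed between populations. Taken over both days, Bcl2's BMP4 difference was -2.03 ± 0.37 in the early minus the intermediate population (adjusted p = 0.0137, 0.429% of all genes) and -1.80 ± 0.37 in the early minus the late population (adjusted p = 0.0234, 0.78% of all genes). Between the intermediate and late populations it was 0.23 ± 0.37, with a 95% interval of -0.53 to 1.00, and 0 of 15136 genes passed limma's test (598 at an unadjusted p under 0.05). None of the other 8 genes passed in any of these comparisons. The early day 1 call was lost without control replicate 1 or BMP4 replicate 2, and the early day 2 call without BMP4 replicate 2 (adjusted p = 0.0614), each of which leaves a group with 1 array. The early minus late difference was lost in 10 of 16 fits that left out 1 array, with the adjusted p at most 0.0908, and the early minus intermediate difference in 2 of 16.

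Markers of other cells moved with BMP4 in the same cultures. The summed signal of 6 cartilage markers was 3687 and 1663 with BMP4 against 4264 and 3922 in control on day 1 of the early population, and 4629 and 2039 against 7727 and 7852 on day 2. Of these 6 markers, 1 passed as higher and 0 as lower on day 1 (all genes: 1.53% and 0.918%). On day 2, 0 passed as higher and 3 as lower (all genes: 2.4% and 3.28%). The summed signal of 7 macrophage markers was 785 and 948 against 429 and 467 on day 1, and 1051 and 1106 against 366 and 446 on day 2. In the intermediate population macrophage markers were 935 and 1112 against 638 and 527 on day 1 and 828 and 958 against 403 and 466 on day 2. Cartilage markers there were 5145 and 3836 with BMP4 against 5064 and 3876 on day 1 and 8045 and 5995 against 5905 and 6479 on day 2. In the late population they were 5648 and 5453 against 3028 and 3674 on day 1 and 7367 and 5690 against 3872 and 6160 on day 2, and macrophage markers lay between 304 and 380 with BMP4 and between 292 and 385 in control. The sum of 3 nerve markers in the early population was 338 and 326 with BMP4 against 212 and 249 on day 1. On day 2 it was 309 and 318 against 212 and 197. In the intermediate population it was 201 and 339 against 174 and 235 on day 1. On day 2 it was 268 and 283 against 153 and 168 there. In the late population it was 278 and 250 against 235 and 254 on day 1, and 222 and 197 against 215 and 168 on day 2. Of 17 cell cycle genes in the early population, 0 passed as lower on day 1 and 7 on day 2 (all genes: 0.918% and 3.28%). The part of cartilage, macrophage and nerve cells, and of the cell cycle, in the Bcl2 result was not tested.

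Bcl2 has 5 probe sets, of which the brightest, 1457687_at, was used above. Probe set 1437122_at stood at 8.05 and 8.06 in early control cultures of day 2 and at 6.40 and 5.96 with BMP4, a difference of -1.88 ± 0.34 (adjusted p = 0.00352). On day 1 it stood at 7.18 and 6.88 against 6.27 and 5.70, at -1.04 ± 0.34 (adjusted p = 0.136). Its response also differed in the early minus the intermediate population, at -1.72 ± 0.34 (adjusted p = 0.0313), and in the early minus the late, at -1.62 ± 0.34 (adjusted p = 0.0334). Probe set 1422938_at stood at 8.11 and 8.11 on day 2 in control and at 7.37 and 6.38 with BMP4, at -1.24 ± 0.38 (adjusted p = 0.069), and at -0.99 ± 0.38 on day 1 (adjusted p = 0.222). Both show the early BMP4 arrays below their controls on each day, and both rose from day 0 to day 1, by 1.15 ± 0.20 and 1.03 ± 0.22. Probe set 1443837_x_at was above the filter on 16 of 30 arrays and 1440770_at on 0, so the latter was not fitted. With the mean of the probe sets in place of the brightest, the early difference was -0.99 on day 1 (adjusted p = 0.0701) and -1.44 on day 2 (adjusted p = 0.0049), the mean of 6 pairs -0.34 (adjusted p = 0.0588), and the differences between populations -1.37 and -1.25 (adjusted p = 0.0351 and 0.047).

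**Figure D3:**
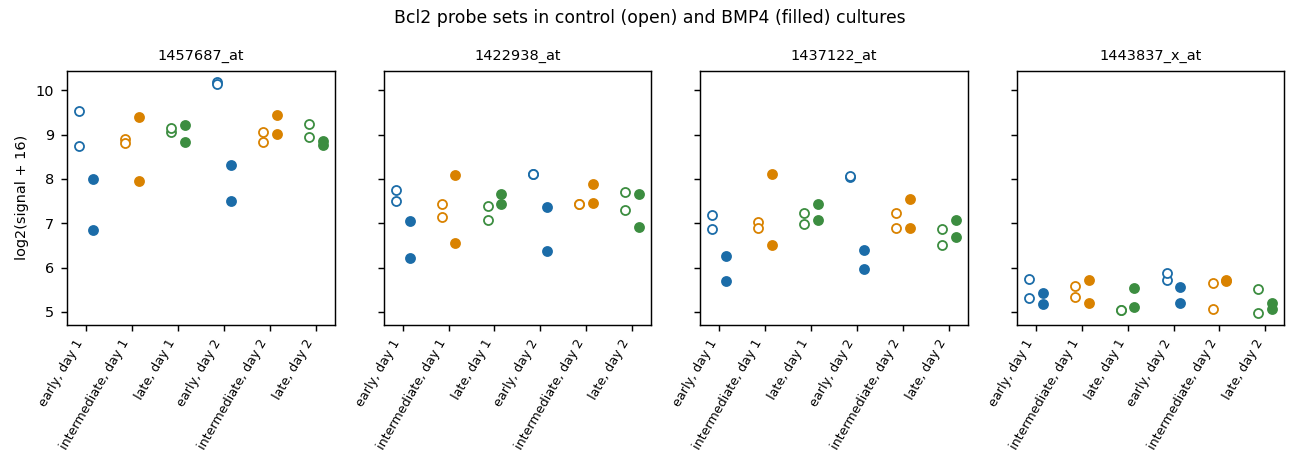
Log2(signal + 16) of the 4 fitted Bcl2 probe sets on the 24 cultured arrays, open points for control and filled for BMP4, with population and day on the horizontal axis; the vertical axis does not start at 0. In 3 of the 4 panels the filled early points lie below the open ones on both days, while those of the dimmest, 1443837_x_at, overlap on day 1.

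Ordered by group mean, Bcl2 was highest in early control cultures of day 2, at 10.15 ± 0.03 (SD, n = 2). Below it came 9 cultured groups from 9.23 ± 0.29 in intermediate BMP4 cultures of day 2 down to 8.67 ± 1.00 in intermediate BMP4 cultures of day 1. The lowest were early BMP4 cultures, at 7.91 ± 0.58 on day 2 and 7.42 ± 0.81 on day 1, and the day 0 groups at 7.42 ± 0.10, 7.38 ± 0.19 and 7.25 ± 0.07 labelled early, late and intermediate. The step below the top group was the only one between neighbours that exceeded both SDs.

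Of the genes not called for BMP4, Bcl2l11 came nearest. On day 1 of the early population it stood at 8.74 and 8.87 in control and at 9.27 and 9.62 with BMP4, a difference of 0.64 ± 0.19 (adjusted p = 0.0797). On day 2 the values were 8.83 and 8.69 against 9.17 and 8.90, at 0.27 ± 0.19, and over the 6 pairs the mean was 0.20 ± 0.08 (adjusted p = 0.0958), positive in 5 of 6 pairs. The early arrays with BMP4 lay above their controls on both days, opposite in direction to Bcl2. In these comparisons 43.3% and 52.1% of all genes did not overlap in either direction. In the intermediate population of day 2 the Bcl2l11 arrays with BMP4 lay below their controls, at -0.32 ± 0.19 (29.5% of all genes did not overlap). Trp53inp1 in late cultures of day 2 stood at 9.93 and 10.10 in control and 9.31 and 9.32 with BMP4, at -0.70 ± 0.28 with an unadjusted p of 0.0205. For Cdkn1a the mean BMP4 difference was -0.14 ± 0.22 (95% interval -0.61 to 0.33), for Ccng1 -0.19 ± 0.23 (-0.67 to 0.28), for Mdm2 -0.02 ± 0.11 (-0.25 to 0.21) and for Bbc3 0.09 ± 0.16 (-0.24 to 0.42). For Bcl2l1 it was -0.07 ± 0.10 (-0.27 to 0.13) and for Mcl1 0.02 ± 0.05 (-0.09 to 0.12). These intervals are narrowest for Mcl1 and widest for Ccng1. The change of the BMP4 difference from day 1 to day 2 passed for none of the 9 genes by limma (Bcl2l11 alone had an unadjusted p under 0.05, 0.0225) and for 0.0132% of all genes.

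Between cultured populations, with the 4 cultured groups of each pooled, only Mdm2 passed, and only between the early and late populations. The 8 early cultured arrays lay between 9.69 and 10.47 and the 8 late ones between 9.30 and 9.88, so they overlapped. The difference was 0.47 ± 0.14 (adjusted p = 0.0367), in a comparison where 9.02% of all genes passed. It was 0.36 ± 0.14 between the intermediate and late populations (adjusted p = 0.119, 7.64% of all genes) and 0.10 ± 0.14 between the early and intermediate ones (3.26% of all genes), and 0 of the 9 genes passed in either. The Mdm2 call was lost in 11 of 16 fits that left out 1 array and without the 3 doubted day 0 arrays, which enter it only through the spread. Bbc3 was 0.49 ± 0.19 higher in the early than the late population (adjusted p = 0.114) and Trp53inp1 0.40 ± 0.14 (adjusted p = 0.0756). The summed signal of skeletal muscle markers was 2039 to 5556 on early and 7018 to 12079 on late cultured arrays. In the same comparison 7 of 7 muscle markers and 3 of 6 cartilage markers were lower in the early population, 6 of 7 macrophage markers were higher, and 4 of 17 cell cycle genes were lower. Their part in the Mdm2 difference was not tested.

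Other genes of the p53 pathway were counted in lists taken from textbook knowledge. These lists and those below were chosen with earlier results of these data known, so the counts carry no test. Of 25 measured p53 targets beside the 9 genes, 13 rose and 5 fell from day 0 to day 1 (all genes: 22.5% and 17%), with a median of 0.34 against 0.00 over all genes. By day 2, 14 were higher and 3 lower (all genes: 26.9% and 21.5%), with a median of 0.59 against -0.01. Those with the smallest adjusted p by day 2 were Phlda3, an inhibitor of Akt, at 2.35 ± 0.26, Zmat3, an RNA-binding protein, at 1.63 ± 0.18, and Apaf1, the core of the apoptosome, at 1.06 ± 0.12. On the first day Plk2, a kinase, rose by 1.47 ± 0.16 and the transcription factor Klf4 was at -1.81 ± 0.18, and Klf4 came back by 1.61 ± 0.18 on the second day. Between days 1 and 2, 5 of the 25 rose and 0 fell (all genes: 5.61% and 2.94%), with Tob1 at 0.51 ± 0.10 and Ddit4 at 0.62 ± 0.13 beside Klf4. With BMP4, 0 rose and 3 fell in the mean of 6 pairs (all genes: 6.1% and 5.55%), namely Tob1 at -0.41 ± 0.07, Ddit4 at -0.44 ± 0.09 and Pidd1 at -0.26 ± 0.08. Of 15 genes for p53's regulators 1 rose and 7 fell from day 0 to day 1 (all genes: 22.5% and 17%), among them Sirt1, a deacetylase, at -1.14 ± 0.09, Trp53bp1 at -0.59 ± 0.08 and Usp7, a protease for ubiquitin that acts on Mdm2, at -0.47 ± 0.07. Trp53 itself was not analysed here.

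Of 14 other measured genes of the Bcl2 family 2 rose and 2 fell by day 1 (all genes: 22.5% and 17%), and 4 rose and 4 fell by day 2 (26.9% and 21.5%), counts close to those shares. Bid, a BH3-only protein cut by caspase 8, was 0.79 ± 0.16 higher at day 1 and 1.22 ± 0.16 at day 2, and Pmaip1 (Noxa), a BH3-only p53 target, was at -1.72 ± 0.41 at day 1. Pmaip1 stood between 8.49 and 11.17 at day 0 and between 7.05 and 9.39 at day 1, so the days overlapped. Bak1, the partner of Bax, was at -0.56 ± 0.12 between days 1 and 2, and the protector Bcl2l2 at 0.43 ± 0.11. In the mean of 6 BMP4 pairs (all genes: 6.1% higher and 5.55% lower) Bmf, a BH3-only gene, rose by 0.48 ± 0.10, and Bid, at -0.63 ± 0.12, and Bnip3, at -0.84 ± 0.26, fell. Of 19 genes for caspases, the apoptosome and their inhibitors 9 rose and 4 fell by day 1 (all genes: 22.5% and 17%), with Casp8 at 0.58 ± 0.10, Fadd at 0.50 ± 0.08 and the DNase Dffb at -0.65 ± 0.10. By day 2, 9 were higher and 6 lower (all genes: 26.9% and 21.5%), and with BMP4 0 rose and 2 fell in the mean of 6 pairs (6.1% and 5.55%), Aifm1 at -0.22 ± 0.05 and Birc5 at -0.35 ± 0.08.

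Beside Cdkn1a, 7 other CDK inhibitors and G cyclins were measured, of which 2 rose and 3 fell by day 1 (all genes: 22.5% and 17%). Cdkn2b was 1.25 ± 0.18 higher at day 1 and 2.74 ± 0.18 at day 2, Cdkn1c 1.43 ± 0.11 and 1.45 ± 0.11, and Ccng2, the relative of Ccng1, was at -1.12 ± 0.10 and -0.80 ± 0.10. With BMP4 only Cdkn2b passed in the mean of 6 pairs, at 0.84 ± 0.13. Of 17 cell cycle genes 1 rose and 11 fell by day 1, and 1 rose and 12 fell by day 2 (all genes: 17% and 21.5% lower), with Bub1 at -1.11 ± 0.10 and Top2a at -0.70 ± 0.07. With BMP4 10 of the 17 fell and 0 rose in the mean of 6 pairs, where 5.55% of all genes fell. Their median was -0.23 against 0.01 over all genes. By single pairs, 7 fell in early cultures of day 2 (all genes: 3.28%), with a median of -0.48. In each other pair 0 fell, where at most 0.918% of all genes did. Medians were -0.33 in early, -0.20 in intermediate and -0.20 in late cultures of day 1. On day 2 they were 0.02 in intermediate and -0.06 in late cultures.

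By Pearson correlation of the 15 group means, the tested genes most like Ccng1 were Phlda3 (r = 0.996), Zmat3 (0.992) and Col8a1 (0.983), and those most like Cdkn1a were Strn3 (0.985), Gng10 (0.966) and Phlda3 (0.964). Phlda3 and Zmat3 are in the p53 target list. For Trp53inp1 they were Myo1c (0.986), Col12a1 (0.984) and Gm9776 (0.981), and for Bcl2 Sema6a (0.973), Pi4kb (0.952) and Arsj (0.946). For Bbc3 they were Nqo2, Ccdc137 and Chd2 (0.957, 0.957 and 0.953), for Bcl2l11 Atg12, Mxi1 and E130308A19Rik (0.959, 0.917 and 0.915), and for Mcl1 Rbm25, Rnf44 and Ddx3x (0.976, 0.972 and 0.97). Mdm2 and Bcl2l1 had lower values, with A930001A20Rik, Plekha7 and Dok3 (0.905, 0.876 and 0.863) and Tmco6, Plin4 and Gm26588 (0.85, 0.813 and 0.803). Their group means spanned 0.82 and 0.64, and those of Mcl1 spanned 0.67. Among the 9 genes, Ccng1 correlated with Cdkn1a and with Trp53inp1 at 0.96, Cdkn1a with Mcl1 at -0.93 and Bcl2 with Bcl2l11 at -0.88. These are descriptions over 15 groups that share the step from day 0 to culture and carry no test.

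The 2 arrays of a cultured group differed in the same direction for several p53 targets. Replicate 2 was above replicate 1 in 12 of 12 cultured groups for Cdkn1a (median difference 0.92), Ccng1 (0.98) and Bbc3 (0.70), and in 11 of 12 for Mdm2 (0.48). For Cdkn1a the gap was as wide as 1.47, where BMP4 and control differed most in late cultures of day 2, at -0.35. Bcl2 went the other way, with replicate 2 higher in 2 of 12 groups (median -0.31), and Trp53inp1, Bcl2l11, Bcl2l1 and Mcl1 were higher in 9, 5, 7 and 8. Of the 25 other p53 targets 7 were higher in replicate 2 in 12 of 12 groups: Zmat3, Phlda3, Pmaip1, Perp, Tigar, Eda2r and Polk. That is 28% of the list, where 359 of all 15136 genes (2.37%) showed it. Higher in replicate 1 throughout were 1 gene of the list (4%), Ddit4, and 231 of all genes (1.53%). The summed signal of red blood cell markers was higher in replicate 1 in all 15 groups, at 16685 to 17773 against 7355 to 9196 at day 0, and its part in the replicate differences was not tested. At day 0 replicate 2 was higher in 2 of 3 groups for Cdkn1a, Ccng1 and Bbc3. The pattern was seen in the data before it was counted and carries no test, and the labels do not say that a replicate number marks a shared day or dissection.

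**Figure D4:**
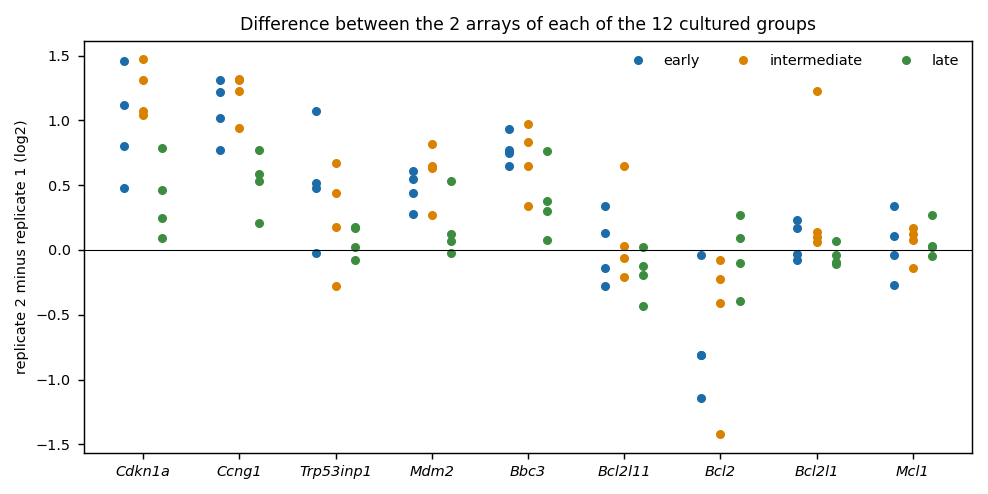
Replicate 2 minus replicate 1 on the log2 scale in each of the 12 cultured groups for the 9 genes, with population in colour; the line marks 0. All points of Cdkn1a, Ccng1 and Bbc3 lie above 0, with medians of 0.92, 0.98 and 0.70, and 10 of the 12 points of Bcl2 lie below it.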

How the data were processed

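The authors deposited intensity values on a linear scale, and the submitters' processing notes name MAS5. Its settings are not stated in the sources used. The mean of each array, trimmed by 2% at each end, is 150, so the authors' intensity values share a common scale. The analysis took log2(signal + 16) without rescaling. Probe sets had to exceed the 40th percentile of the array (a signal of 20.3 to 30.5) on at least 2 of 30 arrays, and the brightest kept probe set of each gene was used. Of 45101 probe sets 34945 have 1 gene symbol in the platform annotation, 932 several and 9160 none, and 64 are controls. No detection calls were used here.

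The test was that of limma 3.58.1 (R 4.3.3): 15 group means in 1 fit of all 30 arrays (15 residual and 5.51 prior degrees of freedom), a mean-variance trend, two-sided, with Benjamini-Hochberg adjustment over 15136 genes in each of 23 comparisons. The number of arrays, 2 a group, limits the precision. The procedure was run on simulated data with independent normal noise. These had no shared difference between replicates and no doubted day 0 arrays, so the run says nothing on either. Genes named are the 9 measured members, up to 3 genes of each list with the smallest adjusted p in each comparison that is a mean over populations, and the 3 genes most correlated with each member. The members and lists were chosen with earlier results of these data known. Pmaip1, Perp, Tigar, Eda2r and Polk in the count of replicate differences, and the checks Pitx1, Tbx5 and Meis2, were named after their values were seen. Same-numbered replicates were compared as pairs: over 105 pairs of groups the correlation of replicate differences was -0.12 to 0.35, with a median of 0.12, and the labels tie no number to a batch, so the fit has no block. Alternatives tried were the pseudocount, the filter, the scaling, the probe set rule, the arrays in the fit, the variance model, a replicate block, each array left out in turn, and no day 0 replicate 2 arrays. Promoters are from RefSeq, GRCm38.p6.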

Additional observations from a re-analysis of the deposited data

Results flagged for a closer look

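The BMP4 response of Bcl2, taken over days 1 and 2, differed between the early and the intermediate population by -2.03 on the log2 scale, and between the early and the late population by -1.80, by limma's test of the difference itself (adjusted p = 0.0137 and 0.0234). In the early population all 4 BMP4 arrays lay below the control arrays of their day, and in the forelimb populations this held for the late day 2 cultures alone. The values of 2 of the other probe sets had the same direction in the early population.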

How the results depend on the processing

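Of 37 calls of a gene in a comparison 20 held under every alternative run and 0 reversed. For the alternatives in this section the shares of all genes that passed are not given. Counts under them describe the 9 genes only. The calls of the mean over populations between days 0, 1 and 2 held for Cdkn1a, Ccng1, Trp53inp1, Bbc3, Bcl2l11, Bcl2 and Mcl1 under every alternative, and that of Mdm2 at day 1 was lost in 9 of 12 fits without 1 array, with median centring, with quantile normalization and without the day 0 replicate 2 arrays. With the mean of probe sets the count of genes past the threshold was 0 for BMP4 at early day 1, 0 for the mean of 6 BMP4 pairs, 0 for early minus late and 1 for day 2 minus day 1 (Mcl1). With only the groups in the contrast it was 0 for BMP4 at early day 1 and 0 for the early minus intermediate response. With median centring and without the day 0 replicate 2 arrays it was 0 for early minus late, and without those arrays it was 3 for day 1 minus day 0 in the early population. Median centring moved the median of all genes by at most -0.19 (early minus late response). Pseudocount, no filter and no variance trend changed calls only for Cdkn1a and Bbc3 in the early day 1 minus day 0 comparison, and the filter on all 30 arrays added Mcl1 in the intermediate one.

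With a replicate block the count of genes past the threshold was 2 for day 2 minus day 1 (Cdkn1a and Ccng1). It was 3 for early minus late (Mdm2, Trp53inp1 and Bbc3) and 1 for intermediate minus late (Mdm2). Calls rose from 37 to 46. The share of all genes that passed with the block is not given, so a rise particular to these genes is not shown. The replicate differences of 60 of 105 pairs of groups correlated above 0.1. Since the labels tie no number to a batch and not every pair did, the numbers were not taken as pairs, which does not show that same-numbered arrays share nothing.

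Leaving out 1 array gave counts of 0 to 1 for BMP4 at early day 1, early day 2 and intermediate day 2, 1 to 2 for the mean of 6 pairs, and 0 to 1 for the early minus intermediate and early minus late responses. Other alternatives gave up to 9 for day 1 minus day 0 in the mean, 6 for the intermediate cells and 8 for the late cells. Leaving out 1 array gave 0 to 1 for day 2 minus day 1 in the intermediate population and in the mean, 0 to 1 for early minus intermediate and intermediate minus late, 0 to 2 for early minus late, 4 to 4 for day 1 minus day 0 early, 3 to 4 intermediate, 4 to 5 late, and 7 to 8 for the mean. A group left with 1 array is assumed to vary like the others. The cause of these changes was not tested.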
